A study of Mus musculus with 2 samples.

Results

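Lung matrix fibroblasts were described here as 107 single cells among the 5608 cells kept from a library of sorted Nes-GFP+ lung cells. They were selected on the UMI counts (unique molecular identifiers, each standing for 1 captured transcript) of Npnt, Tcf21, Inmt and Col13a1. A cell with more than 200 and fewer than 4000 genes and under 40% mitochondrial UMIs entered when the sum of these 4 genes was at least 4. That sum also had to be above each of 4 other sums, for pericytes (Cox4i2, Higd1b, Fam162b, Pdgfrb), endothelial cells (Cldn5, Pecam1, Cdh5), myofibroblasts (Tgfbi, Hhip, Fgf18, Wnt5a) and smooth muscle (Myh11, Actg2, Cnn1, Actc1), and Mki67 plus Top2a could be at most 1. The 107 cells made up 1.91% of the kept lung cells (exact binomial 95% interval 1.57 to 2.30%). They were a mixture, since 36 cells had a higher pooled level of an alveolar than of an adventitial fibroblast list and the other 71 the reverse, as described further on. Because these rule genes and the transcriptomes they come from chose the cells, all contrasts below are descriptions with no test.

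The study sorted GFP+ cells from adult Nestin-GFP mice of about 6 weeks, in which GFP is driven by Nestin regulatory elements, and sequenced 1 brain and 1 lung library with the 10x Chromium 3′ v3 chemistry. Both tissues were dissociated with trypsin before sorting. The labels give the strain as C57BL/6, whereas the methods describe wild-type stock of CD1 or CD1 by C3H background for breeding, and how many mice were pooled is not given in the sources used here. With 1 library a tissue, animals, preparation and tissue cannot be told apart, cells of a library are not replicates, and every interval covers counting error only. In addition, a brain library of 4151 kept cells was used for 1 comparison.

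Matrix fibroblasts are the collagen-producing stromal cells of the lung interstitium. Alveolar matrix fibroblasts lie in the alveolar walls beside the epithelium, are classically marked by Col13a1, Npnt, Tcf21 and Inmt, and supply growth factors and retinoids to alveolar cells. Adventitial fibroblasts surround the airways and large vessels, are marked by Col14a1, Dcn, Pi16 and Ly6a, and carry complement and chemokine genes. Myofibroblasts and pericytes are the neighbouring mesenchymal types, the first contractile and elastin-producing and the other wrapped around capillaries.

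Of the 4 selecting genes, Npnt encodes nephronectin, a basement membrane ligand of the integrin with the alpha 8 chain, and Col13a1 encodes a transmembrane collagen. Tcf21 encodes a basic helix-loop-helix factor of mesenchymal progenitors, a class of proteins that binds CANNTG, and Inmt encodes an indole amine methyltransferase. The 250 bases before the starts of Npnt and Col13a1 are shown because these genes stood highest together in the same subset of the cells (described further on). They are RefSeq sequences of GRCm38.p6, 5′ to 3′ on the minus strand, Npnt at chr3:132950292-132950541 and Col13a1 at chr10:61979109-61979358, with each CANNTG and TATAAA in capitals.
Npnt: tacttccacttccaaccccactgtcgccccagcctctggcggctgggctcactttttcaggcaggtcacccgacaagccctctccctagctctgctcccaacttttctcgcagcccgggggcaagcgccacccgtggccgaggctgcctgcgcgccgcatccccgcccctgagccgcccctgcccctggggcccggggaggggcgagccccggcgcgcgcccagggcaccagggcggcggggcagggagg
Col13a1: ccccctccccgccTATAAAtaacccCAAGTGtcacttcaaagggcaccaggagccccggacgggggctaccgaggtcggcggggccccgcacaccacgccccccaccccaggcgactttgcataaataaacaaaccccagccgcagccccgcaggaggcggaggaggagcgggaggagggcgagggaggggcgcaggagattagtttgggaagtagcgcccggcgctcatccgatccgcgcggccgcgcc
CANNTG reads the same on both strands and TATAAA was searched on both. The Npnt stretch held neither, whereas the Col13a1 stretch held 1 of each, without overlap. The Inmt stretch held 2 CANNTG and 2 TATAAA, and the Tcf21 stretch held 0 of both. Among 32851 mouse promoter stretches of this length, 66.2% held CANNTG and 12.4% held TATAAA. Of the 20 genes that led the comparison with other lung cells, 15 had a stretch in the reference table, of which 11 held CANNTG and 6 held TATAAA.

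Among the kept lung cells, 955 had a sum of at least 4, and 848 of these were not members. In 778 the pericyte sum was as high or higher, in 74 the myofibroblast sum, in 45 the smooth muscle sum and in 5 the endothelial sum, and 47 were over the limit for cycling genes. The sum in the 107 cells ranged from 4 to 54, with a median of 7 and quartiles of 5 and 12. One of the 4 genes was detected in 31 cells, 2 in 43, 3 in 25 and all 4 in 8 cells. At the edge, the 17 cells with a sum of 4 had 3328 CPM of Mfap4, 8347 CPM of Dcn and 13.8 CPM of Nes (CPM, UMIs of a gene per 1000000 UMIs pooled over the cells). The 19 cells with a sum of 3 that met the other conditions had 3513, 8076 and 29.7 CPM. Limch1 stood at 235 CPM just inside and 53.4 CPM just outside. By contrast, the 778 cells excluded by their pericyte sum had 126 CPM of Mfap4, 217 of Dcn and 524 of Nes.

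**Figure D1:**
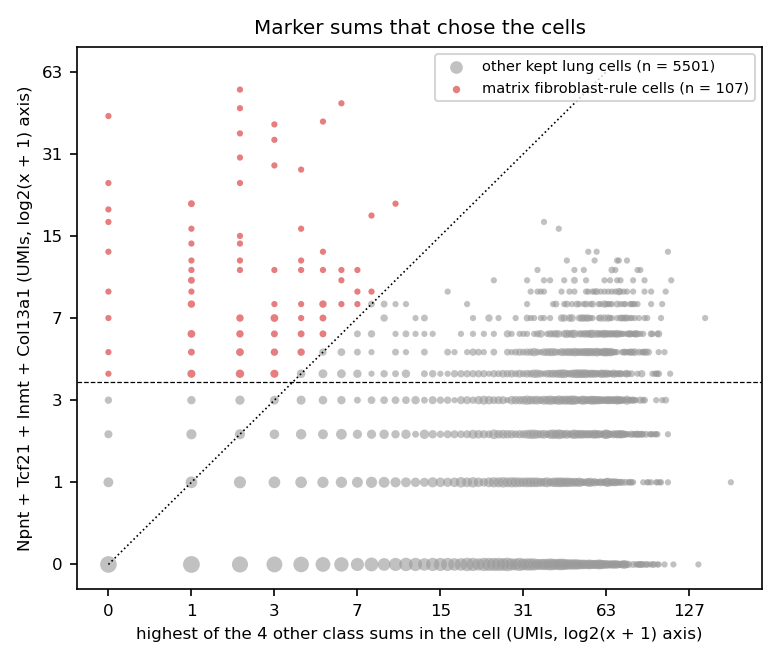
Sum of Npnt, Tcf21, Inmt and Col13a1 UMIs (vertical) against the highest of the 4 other sums (horizontal) in each of 5608 kept lung cells, both on a log2(x + 1) axis, with point area growing with the number of cells. The 107 selected cells (red) lie above the dotted line of equal sums and the dashed threshold, and most of the 848 cells excluded with a sum of at least 4 lie far to the right, where the other sum is larger.

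The selecting genes were spread unevenly. Tcf21 was detected in 103 of the 107 cells (648 UMIs, 704 CPM, exact Poisson 95% interval 651 to 760), Npnt in 62 (375 UMIs, 407 CPM, 367 to 451), Inmt in 34 (151 UMIs, 164 CPM, 139 to 192) and Col13a1 in 25 (65 UMIs, 70.6 CPM, 54.5 to 90.0). In the 2336 cells of the pericyte rule, Npnt stood at 293 CPM and Tcf21 at 235 CPM, whereas Inmt was at 0.926 and Col13a1 at 1.6 CPM. Among the 1356 cells of the myofibroblast rule the levels were 10.1, 58.4, 7.98 and 5.46 CPM in the same order. Because the same sums separated these classes from the 107 cells, their levels of the 4 genes are partly set by the rule.

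Markers of other cell types were checked across the 107 cells. All 107 cells had a Col1a1 UMI, 105 had Mfap4 and 83 had Dcn, and 1 cell had neither Mfap4 nor Dcn. Lists for pericytes, myofibroblasts, smooth muscle and endothelium include rule genes that the selection kept low, so that their lower sums are partly built in. The pericyte list summed to 2422 CPM with a UMI in 104 cells, against 2046 CPM in myofibroblast-rule and 21964 CPM in pericyte-rule cells, and Postn, which encodes periostin, gave 1701 CPM of it. The myofibroblast list summed to 1218 CPM with a UMI in 105 cells, against 6902 CPM in myofibroblast-rule cells, and the smooth muscle list to 679 CPM in 79 cells. The endothelial list summed to 336 CPM with a UMI in 91 cells, of which Ramp2 gave 206 CPM, whereas Egfl7, which no rule used, was at 7.61 CPM against 276 CPM in the other lung cells. Ptprc, the pan-leukocyte gene, was at 0 UMIs, as were 8 of 14 leukocyte, 8 of 15 epithelial and 7 of 8 mesothelial list genes. Summed over its list, the epithelial markers were at 35.9 CPM in the 107 cells, of which Sftpc gave 14.1, against 669 CPM in the other lung cells. Leukocyte markers were at 13.0 against 141 CPM, mesothelial markers at 4.35 against 19.5 CPM and erythroid markers at 26.1 against 1806 CPM. Schwann and neural markers were at 253 against 637 CPM, with 6 of 10 list genes at 0 UMIs in the 107 cells. The same list stood at 1149 CPM in pericyte-rule cells. The Scrublet doublet caller marked 74 kept lung cells (1.32%) and 0 of the 107. The 107 cells were deeper than the rest, with a median of 8631 UMIs and 2893 genes against 5542 UMIs and 2450 genes. The part of the other types' markers in the results was not tested. The libraries shared 15 barcodes, none of them a member's.

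Nes, the gene whose regulatory elements drive the reporter, was low in these sorted cells. It encodes the intermediate filament nestin. The 107 cells held 11 Nes UMIs in 9 cells, a level of 12.0 CPM (5.97 to 21.4). Nes stood at 491 CPM in pericyte-rule cells, 362 CPM in myofibroblast-rule cells, 178 CPM in endothelial-rule cells and 160 CPM in smooth muscle-rule cells. The level in the 107 cells was 30.8-fold lower than in all other lung cells (exact binomial 95% interval 17.2 to 61.7). With each cell thinned to 2000 UMIs, 2.83% of 106 matrix fibroblasts and 46.9% of 4806 other cells had a Nes UMI (8.41% and 65.7% without thinning). In the endothelial-rule cells, with a median depth of 5406 UMIs, the thinned share was 27.9%. Levels of GFP itself were not analysed here.

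**Figure D2:**
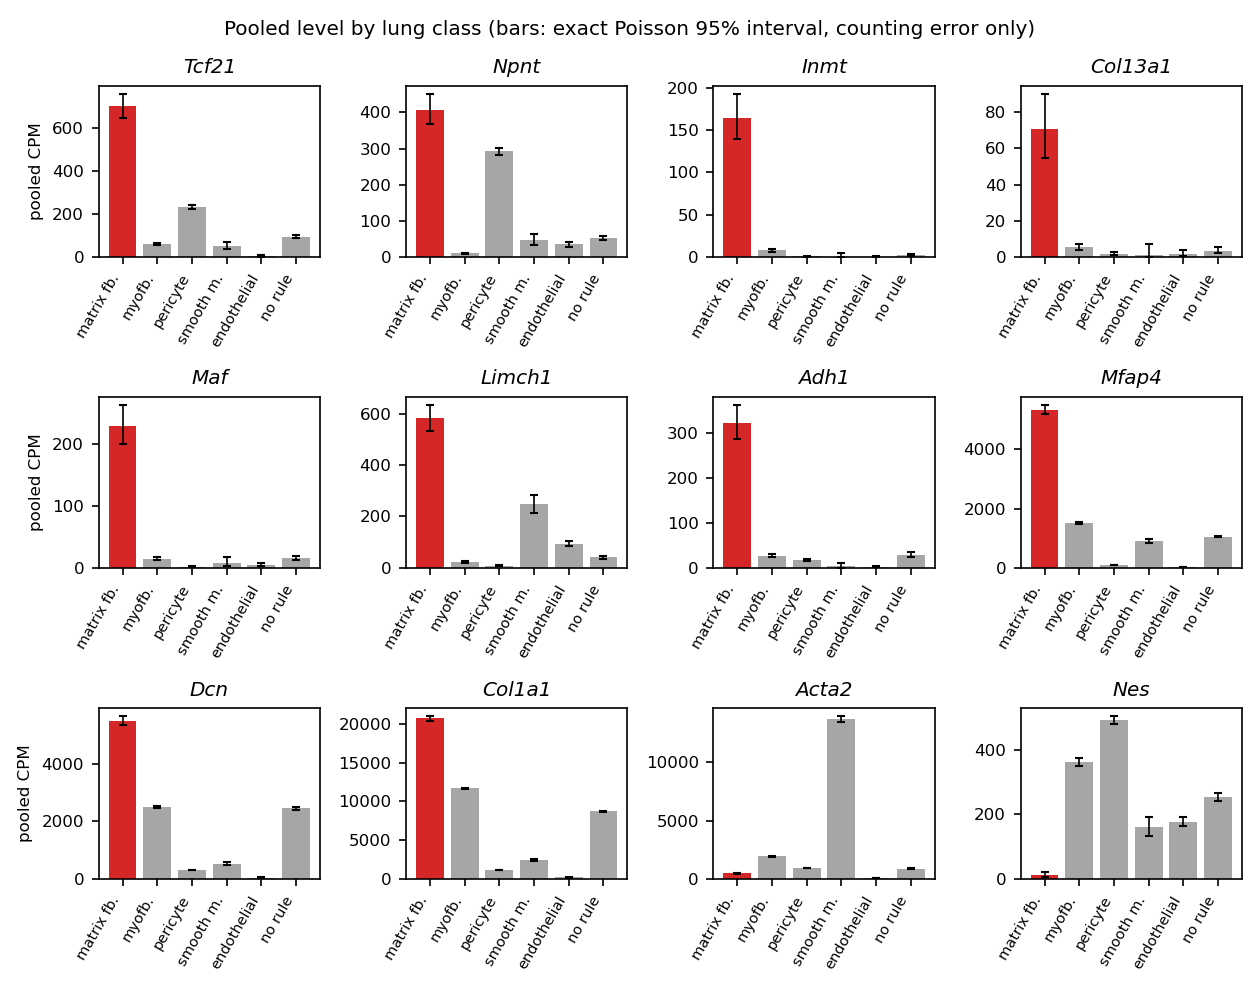
Pooled CPM of 12 genes in the 107 matrix fibroblasts (red) and in the lung cells that met the myofibroblast, pericyte, smooth muscle or endothelial rule or none of them (grey), with exact Poisson 95% intervals that cover counting error only. Tcf21 and Npnt were also read in pericytes, Maf, Adh1, Inmt and Col13a1 were low outside the red bar, Acta2 stood highest in smooth muscle, and Nes was at 12.0 CPM in the matrix fibroblasts and at 160 CPM or more in every other class drawn.

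Compared with the 5501 other kept lung cells, matrix fibroblasts stood highest in Maf, 6030408B16Rik, Limch1, Adh1 and Figf by the lower bound of the ratio and had 12 of 16 pan-fibroblast genes higher, and they stood lowest in genes such as Stmn2, Mcam and Gja4. A gene was counted as higher or lower at a ratio of pooled CPM of at least 2 or at most 0.5, among genes at 10 CPM or more over both pools together. Of 9047 such genes, 391 (4.32%) were higher and 1440 (15.9%) lower. This balance depended on the floor. The other cells held most of the pooled UMIs, so a gene found mostly in matrix fibroblasts could fall under it. With 10 CPM asked of either pool 676 were higher and 1454 lower, and without a floor 2018 and 2014. With cells thinned to 2000 UMIs and the floor again over both pools, the counts were 559 and 2219. Thinning left out 1 matrix fibroblast and 695 other cells below that depth and made both pools smaller. Genes with few UMIs can then pass the limit by counting error, so these counts do not show the effect of depth alone. The median gene was 0.28 lower on the log2 scale, so that values are best read against that shift. With median-of-ratios scaling, 628 were higher and 1064 lower, that is, 37.1% of the called genes were higher in place of 21.4%.

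Maf, a basic leucine zipper factor, ranked first by the lower bound of its ratio among genes past the floor with at least 50 UMIs, rule genes left out. Genes rarer in the other cells fell under the floor, for example Ces1d (79 UMIs in the 107 cells) and Cpm (99 UMIs). It was detected in 52 of the 107 cells and stood at 230 CPM over all 107 and at 8.87 CPM in the other cells, 26.0-fold higher (21.6 to 31.2), and 43.6% of all its lung UMIs lay in the 107 cells. By the share of lung UMIs inside the 107 cells, Maf was followed by 6030408B16Rik (37.4%), Limch1 (34.1%), Adh1 (31.5%) and Figf (26.8%). That ranking was made among genes past the floor, rule genes left out, over the 5608 cells of 1 library. Limch1, which encodes a regulator of actomyosin, was 17.3-fold higher (581 against 33.5 CPM, interval of the ratio 15.6 to 19.3). Figf, the gene of the lymphatic growth factor VEGF-D, was detected in 85 of the 107 cells and was 12.3-fold higher (10.7 to 14.1).

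Several enzymes were among the 20 leading genes. Adh1, an alcohol and retinol dehydrogenase, was 15.5-fold higher (13.4 to 17.8). Enpep, the aminopeptidase that cleaves angiotensin II, was 9.85-fold higher (8.27 to 11.7). Dpep1, a dipeptidase, was 10.2-fold higher, and Gyg, the primer protein of glycogen synthesis, 8.47-fold higher. The UMIs of some of these genes lay mostly in 36 of the cells, called cluster A further on. Those 36 held 93.6% of the members' Enpep UMIs, 88.6% of Gyg, 89.3% of Limch1, 89.0% of Slit2 and 78.2% of Adh1. In the other 71 cells Enpep stood at 17.0 CPM, against 19.1 CPM in the rest of the lung cells, and Gyg at 57.1 against 41.6 CPM. In the same 71 cells Adh1 stood at 100.2 against 21.0 CPM and Limch1 at 87.9 against 33.5 CPM. Maf (105 CPM), Figf (241 CPM), Rbp4 (287 CPM) and Dpep1 (84.8 CPM) were likewise above the other lung cells there. Of the xenobiotic and redox list, 7 of 15 genes past the floor were higher, among them Fmo2 (3.03-fold), Gpx3 (4.16-fold) and Mgst1 (3.96-fold), and 4 were lower. One of these, Cyp4b1, had 0 UMIs in the 107 cells against 21.2 CPM, at least 6.51-fold lower when 3 UMIs stand in for 0.

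In the retinoid list, 3 of 10 genes past the floor were higher and 1 lower. Rbp4, the plasma carrier of retinol, was 8.93-fold higher (312 against 34.9 CPM). Aldh1a2, an enzyme that makes retinoic acid, was 2.76-fold higher, and Cyp26b1, which degrades retinoic acid, was the lower one. In the lipid handling list, 4 of 17 were higher, namely Lpl (3.95-fold), Apoe (3.83-fold), Vldlr (3.22-fold) and Zfp423. The 3 lower genes were Lepr, Fabp4 (14.1 against 157 CPM) and Cd36 (1 UMI against 60.3 CPM), and the last pair stood at 1204 and 499 CPM in endothelial-rule cells.

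Matrix lists differed in their counts. In the pan-fibroblast list, 12 of 16 genes were higher and 0 lower, with a median log2 ratio of 1.75. Col1a1 stood at 20714 CPM in the 107 cells against 5661 CPM, 3.66-fold higher. The 36 cells of cluster A stood at 7526 CPM, so that most of this excess lay in the other 71. Mfap4, a microfibril protein, was 7.43-fold higher (5338 against 719 CPM). Dcn, a small proteoglycan that binds collagen, was 4.11-fold higher, and Fn1, fibronectin, 4.73-fold higher. The excess of Dcn lay in the 71 cells outside cluster A (7562 CPM), since the 36 cells of A, at 585 CPM, were below the 1339 CPM of the other lung cells. Dcn was detected in 14 cells of A, a few of which held most of its UMIs there. Igfbp3, Il33 and Fst, named below as higher, were likewise under the other lung cells in A, at 25.7 against 31.3 CPM for Igfbp3 and at 0 UMIs for Il33 and Fst. Among the collagens, 9 of 19 were higher and 2 lower, the latter being the basement membrane chains Col4a1 (2.64-fold lower) and Col4a2 (2.85-fold lower), which pericyte-rule cells held at 4142 and 2240 CPM.

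The elastic fibre list had 8 of 18 genes higher and 2 lower. Fbln5 was 2.69-fold higher, Loxl1 3.17-fold and Lox 4.46-fold, whereas the latent TGF-beta binding protein Ltbp2 was 10.1-fold lower. Elastin itself (Eln) was at 504 CPM against 497 CPM. Of 25 proteoglycan and matricellular genes, 12 were higher, including Ogn (7.32-fold), Gpc3 (5.54-fold) and Mgp (3.84-fold), and 3 were lower, including Tnc (2.13-fold lower). Proteases and their inhibitors had 12 of 24 genes higher and 2 lower. Mmp3, which encodes stromelysin, was 7.97-fold higher (14 cells), Htra3 5.57-fold and Adamts5 4.10-fold. In the list of basement membrane and nephronectin partner genes, 0 of 15 were higher and 5 lower, among them the integrin chains Itga1 (17.8-fold lower), Itga6 (22.8-fold lower) and Itgb1 (2.47-fold lower). Itga8, the chain of the nephronectin receptor, was at 66.3 CPM against 53.4 CPM.

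Signalling genes were divided. The IGF list had 4 of 8 genes higher and 0 lower (Igf1 2.10-fold, Igfbp3 2.33-fold, Igfbp4 3.35-fold, Igfbp7 3.06-fold). The Hedgehog list also had 4 of 8 higher and 0 lower, namely the coreceptors Gas1 (3.24-fold), Boc (3.53-fold) and Cdon (5.07-fold) and the target Gli1 (2.38-fold). Fgf7, a growth factor for lung epithelium, was 3.67-fold higher, whereas Hgf had 1 UMI against 17.7 CPM, and the FGF and HGF list had 3 of 13 higher and 5 lower. Of the guidance and angiogenic ligands and receptors, 6 of 20 were higher, including Slit2 (9.19-fold), Slit3 (4.34-fold) and Sema3d (5.48-fold), and 4 were lower, including Angpt1 (2.28-fold lower).

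In the Wnt list, 4 of 23 genes were higher and 8 lower, the latter including the targets Axin2 (4.02-fold lower) and Lef1 (0 UMIs against 59.5 CPM, at least 18.3-fold lower). The TGF-beta and BMP list had 3 of 24 higher, Fst at 3.10-fold, Gdf10 at 3.84-fold and Ltbp1 at 2.37-fold, and 6 lower, including Bmp2 (2 UMIs against 50.5 CPM). In the PDGF list 1 of 4 genes past the floor was higher and 2 lower. Complement and innate genes had 10 of 16 higher and 2 lower. The C1 protease C1ra was 4.02-fold higher, the complement inhibitor Serping1 4.07-fold, the adhesion molecule Vcam1 5.35-fold and the alarmin Il33 3.05-fold, whereas Tslp was 3.16-fold lower.

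Among 38 lung mesenchyme transcription factors, 9 were higher and 13 lower. Meox2, a homeobox factor, was 7.13-fold higher, Osr1 4.11-fold, Prrx1 3.33-fold and Cebpb 3.16-fold. The T-box factors Tbx2 (3.12-fold), Tbx3 (10.2-fold), Tbx4 (4.24-fold) and Tbx5 (3.64-fold) were all lower, as were the forkhead factors Foxf1 (17.1-fold) and Foxf2 (24.3-fold). Contractile genes had 0 of 13 higher and 9 lower, with Acta2 at 491 CPM against 1479 CPM and Des at 14.1 against 473 CPM. In the 36 cells of cluster A, Acta2 (1262 CPM), Tbx2 (445 CPM) and Tbx4 (129 CPM) were less than 2-fold under the other lung cells. Of 22 vasoactive and channel genes, 15 were lower, including the guanylate cyclase chain Gucy1a3 (194 against 2141 CPM), the phosphodiesterase Pde5a (16.9-fold) and the potassium channel Kcnk3 (18.5-fold), and 3 were higher, Enpep, the prostacyclin synthase Ptgis (2.61-fold) and the angiotensin receptor Agtr2 (3.56-fold). Agtr2 was lower than in the other cells (log2 ratio -0.95) among the 39 members with a sum of at least 10. Immediate early genes, which also answer to enzymatic dissociation, had 3 of 21 higher (Jun 2.40-fold, Atf3 3.59-fold, Hspa1a 2.05-fold) and 2 lower.

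The genes furthest below the rest of the lung cells were those of other classes. Stmn2 had 0 UMIs in the 107 cells (at least 63.2-fold lower) and stood at 1860 CPM in endothelial-rule cells. Mcam, an adhesion molecule of pericytes, had 5 UMIs against 539 CPM in the other cells, and the connexin Gja4 had 1 UMI against 196 CPM. P2ry14, a receptor of UDP sugars, was 61.0-fold lower, Lmcd1 47.6-fold lower and Epas1, the hypoxia factor HIF-2 alpha, 46.1-fold lower. Ccl21a had 0 UMIs (at least 36.9-fold lower), and the haemoglobin genes Hbb-bs, Hbb-bt and Hba-a1 had 13, 2 and 6 UMIs.

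**Figure D3:**
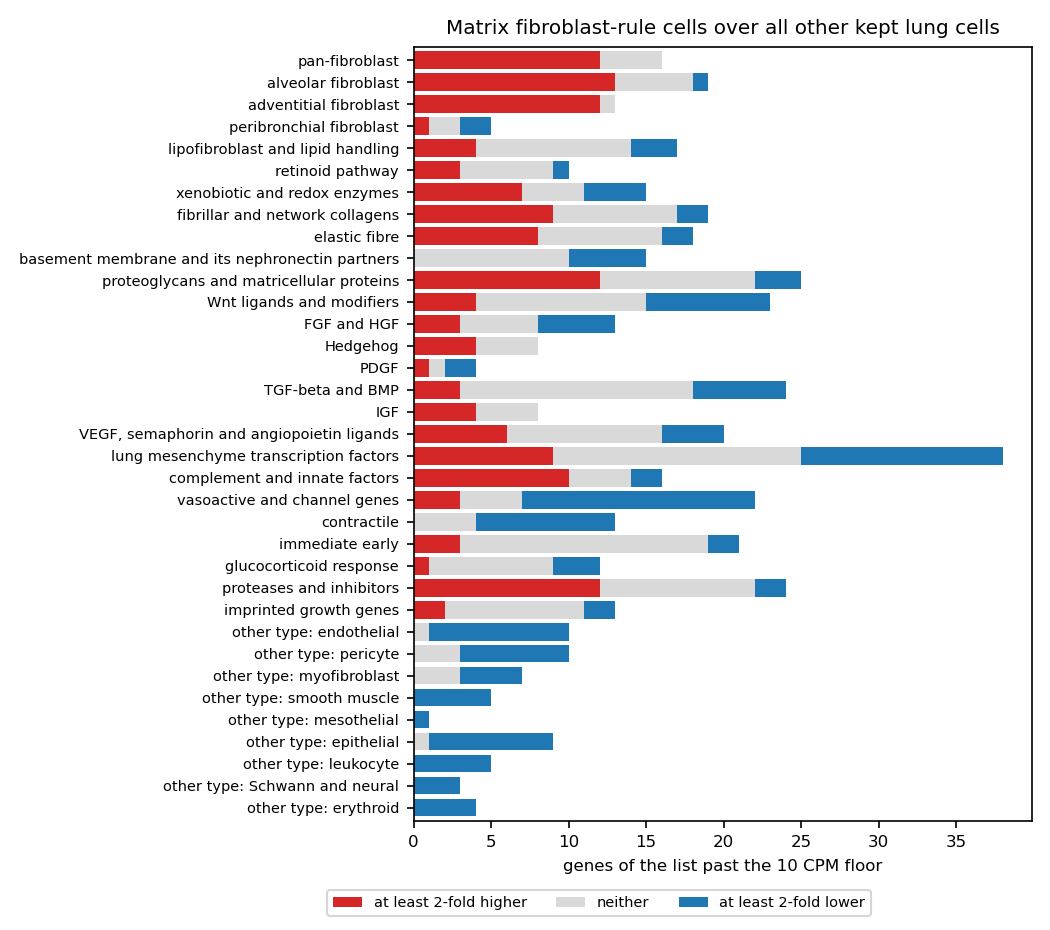
Number of genes in each list at least 2-fold higher (red), at least 2-fold lower (blue) or neither (grey) in the 107 matrix fibroblasts over all other kept lung cells, among genes past the 10 CPM floor. The pan-fibroblast (12 of 16), alveolar (13 of 19) and adventitial (12 of 13) lists were mostly higher and the contractile list (9 of 13) and the lists of other cell types mostly lower, beside 4.32% higher and 15.9% lower among all genes tested.

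Set against the 1356 myofibroblast-rule cells alone, fewer general matrix genes stood out, with 7 of 16 pan-fibroblast genes higher and 1 lower, while 12 of 19 alveolar genes were higher and 3 lower and 11 of 14 adventitial genes were higher and 0 lower. Of 8599 genes past the floor, 354 (4.12%) were higher and 749 (8.71%) lower, with a median log2 ratio of -0.17 over all genes. The balance depended on the floor. With 10 CPM asked of either pool 571 were higher and 772 lower, and without a floor 1955 and 1275. Median-of-ratios scaling gave 472 higher and 581 lower, 44.8% of the called genes higher in place of 32.1%. Cpm, a membrane carboxypeptidase, stood at 108 CPM against 1.16 CPM, 93.1-fold higher (49.8 to 193). Nebl, an actin-binding nebulin relative, was 59.0-fold higher (36.4 to 100.1), Enpep 38.1-fold, Limch1 26.5-fold, Slc38a5, an amino acid transporter, 15.7-fold and Itga8 11.7-fold. All Cpm UMIs of the 107 cells and 98.2% of those of Nebl lay in cluster A. In the other 71 cells Limch1 stood at 87.9 CPM against 22.0 CPM in myofibroblast-rule cells, Slc38a5 at 35.5 against 7.98 CPM, Enpep at 17.0 against 4.94 CPM and Itga8 at 18.5 against 5.67 CPM. Col1a1 (1.77-fold) and Col3a1 (1.70-fold) stayed under the 2-fold limit, while Dcn (2.21-fold) and Mfap4 (3.51-fold) passed it. In cluster A, Dcn (585 CPM) and Col1a1 (7526 CPM) were lower than in myofibroblast-rule cells, so that their rise lay in the other 71 cells.

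Genes lower than in myofibroblasts included Agt, angiotensinogen, with 5 UMIs against 701 CPM, and Mustn1 with 8 UMIs against 853 CPM. Pdlim3 had 6 UMIs against 478 CPM. The actin-binding gene Tagln was 14.8-fold and elastin (Eln) 2.04-fold lower. Pdgfra, the PDGF receptor of fibroblasts and myofibroblasts, was 2.03-fold lower (142 against 289 CPM). With the median-of-ratios factor of 0.893, neither Eln nor Pdgfra reaches the 2-fold limit. The complement and innate list had 13 of 14 genes higher and 0 lower, including Cxcl12 (2.29-fold) and C3 (2.60-fold), with 38.9% of the C3 UMIs from 1 cell. Contractile genes had 0 of 13 higher and 8 lower.

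Against the 2336 pericyte-rule cells, 587 (6.91%) of 8492 genes were higher and 1474 (17.4%) lower, with a median log2 ratio of -0.32. Here too the balance depended on the floor, with 1185 higher and 1497 lower at 10 CPM in either pool and 2782 and 1987 without a floor. Under median-of-ratios scaling the counts were 867 and 1021, so that 45.9% in place of 28.5% of the called genes were higher. Maf was 119-fold higher (77.2 to 192), Limch1 70.5-fold, Ogn 60.2-fold and Mfap4 53.8-fold. Smoc2, a calcium-binding matrix protein, was 46.7-fold higher, Pcolce2, an enhancer of procollagen processing, 40.9-fold and Fmo2 40.7-fold. Fibrillar collagens were also higher, Col1a1 by 18.3-fold and Col3a1 by 11.2-fold, and the elastic fibre list had 13 of 18 genes higher and 1 lower. Mcam was 211-fold lower, the endothelial lipase Lipg had 1 UMI against 309 CPM, and Trpc6, a cation channel, had 3 UMIs against 387 CPM. In the pericyte marker list 0 of 10 genes were higher and 8 lower. Immediate early genes had 14 of 20 higher and 0 lower.

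The 107 cells were not uniform. Grouping them on 1000 variable genes, with the rule genes left out, gave cluster A with 36 cells, cluster B with 38 and cluster C with 33. The genes that led each cluster define it and are given as a description. Cluster A was led by Cpm, Ces1d, Nebl, Hsd11b1, Enpep, Macf1, Limch1 and Wnt2, cluster B by Sele, Hmcn2, Cthrc1, Dio2 and Itgbl1, and cluster C by C3, AW112010, Igfbp3, Penk and Podn. Sele lay in 3 cells, 63.3% of its UMIs in 1 of them. Median depth was 7299 UMIs in cluster A, 9539 in B and 8704 in C, and the median mitochondrial share was 3.78%, 2.61% and 2.45%. Cluster A was the same 36 cells at a lower resolution of 0.3, where B and C formed 1 cluster of the rest. When every gene of the lists was left out of the grouping, 34 of the 36 cells of A stood together in a cluster of 38, whereas at resolution 0.3 without those genes the cluster mostly of A cells held 22 of the 36.

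The rule genes were left out of the grouping, but every member had to reach the threshold on their sum, so that their levels by cluster are a description and no support for the split. Npnt stood at 1188 CPM in cluster A, 66.5 in B and 97.4 in C, and Col13a1 at 221, 5.54 and 10.4 CPM, so that 22 of the 25 cells with Col13a1 were in A. Tcf21 was at 1137, 607 and 417 CPM and was detected in 34, 37 and 32 cells. Inmt had another pattern, at 221 CPM in A, 8.31 in B and 306 in C. The median marker sum was 16.5 UMIs in A, 6 in B and 7 in C, and among cells with a sum of at least 10, numbering 39, Dcn stood at 2165 CPM, against 8347 CPM among those with a sum of 4. Of the 107 cells, 10 had UMIs of both Col13a1 and Col14a1, 15 of Col13a1 alone, 79 of Col14a1 alone and 3 of neither. Of the pooled marker sum, Tcf21 gave 607 of 687 CPM in B, and Tcf21 and Inmt gave 417 and 306 of 831 CPM in C, whereas Npnt gave 1188 of 2766 CPM in A. The 8 cells with all 4 markers were among the 36 cells of A. In summed level, the 71 cells of B and C had 20281 CPM of the adventitial list and 7848 CPM of the alveolar list, whereas A had 6702 and 22073 CPM. The pooled level of the 71 cells thus went in part against their label.

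**Figure D4:**
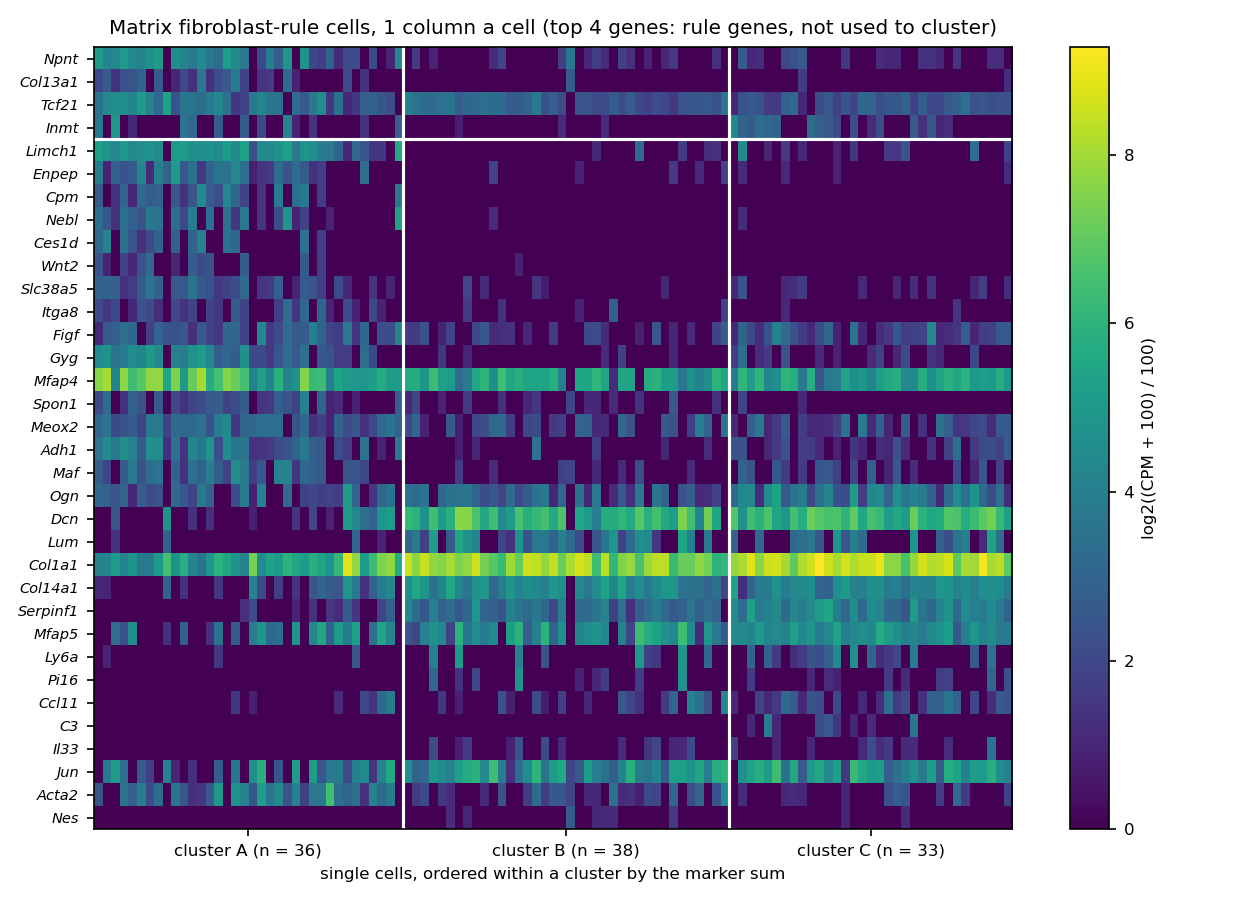
Expression in the 107 single cells, 1 column a cell, as log2((CPM + 100) / 100), grouped by cluster A, B or C and ordered by the marker sum within each. Npnt, Limch1 and Enpep are found in 31, 34 and 28 of the 36 cells of A and Col13a1, Cpm and Ces1d in 22, 22 and 14, while Dcn, Lum, Col1a1, Col14a1 and Serpinf1 are brightest in the 71 cells of B and C, and a few cells at the right of A carry Dcn and Col1a1.

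Cluster A over the other 71 cells had 1071 of 8163 genes (13.1%) higher and 787 (9.64%) lower, with a median log2 ratio of 0.15. Because the same transcriptomes formed the clusters, these counts are a description. In the alveolar list, 18 of 24 genes were higher in A and 1 lower, with a median log2 ratio of 2.13. Limch1 was at 1758 CPM in A, 44.3 in B and 143 in C. Ces1d, a carboxylesterase, had 79 UMIs in 14 cells of A and 0 elsewhere (at least 62.8-fold higher), and Cpm had 99 UMIs in 22 cells of A and 0 elsewhere (at least 78.7-fold higher). Wnt2, the Wnt ligand of distal lung mesenchyme, was detected in 13 cells of A and 1 of B. Fgfr4 was detected in 10 cells of A and in 0 others, Fgfr3 in 22, 1 and 5 cells, and Fgf10, the branching factor of lung mesenchyme, in 15, 1 and 9. Slit2 was 19.3-fold and Vegfa 6.72-fold higher in A.

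The adventitial list went the other way, with 0 of 15 genes higher in A and 10 lower, at a median log2 ratio of -2.03. Dcn was at 585 CPM in A, 7288 in B and 7905 in C. Pi16 had 0 UMIs in A and was detected in 9 cells of B and 10 of C, and no cell had both Ces1d and Pi16. Dpp4, another marker of that list, had 1 UMI in all 107 cells. Serpinf1 was 12.6-fold, Ly6a 17.0-fold and Col14a1 4.07-fold lower in A. Smoc2 was 11.5-fold lower in A, with 2, 31 and 25 cells, although it was among the leading genes of the 107 cells as a whole.

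Fibrillar collagens followed the same side, with Col1a1 at 7526, 22340 and 31141 CPM in A, B and C and 8 of 20 collagens lower in A against 3 higher. A few cells of A, most of them with a low marker sum, held most of its Col1a1 UMIs. Complement and innate genes had 12 of 17 lower in A and 1 higher, Cxcl14. C3 was detected in 9 cells, all of them in C and all with an Inmt UMI, and 38.9% of its UMIs lay in 1 cell. Il33 had 0 UMIs in A and was detected in 13 cells of B and 11 of C. Immediate early genes had 12 of 22 lower in A and 1 higher, with Fos at 897, 2338 and 3200 CPM. The mitochondrially encoded genes summed to 20035, 14271 and 12162 CPM, and 0 of 8 passed the 2-fold limit. The part of cell state after dissociation in the split was not tested.

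Contractile genes, low in the 107 cells as a whole, were higher in A than in B and C for 7 of 10 genes and lower for 0. Acta2 was at 1262, 222 and 101 CPM, with 22.1% of its UMIs from 1 cell, and still below the 1923 CPM of myofibroblast-rule cells. Among transcription factors, 7 of 37 were higher in A, including Tbx4 (20.9-fold), Tbx2 (8.25-fold) and Tbx5 (2.82-fold), and 13 were lower, including Klf4 (9.08-fold) and Osr1 (4.07-fold). Thus in A, Tbx2 (445 CPM) and Tbx4 (129 CPM) lay nearer the levels of myofibroblast-rule cells (385 and 199 CPM) than in B and C. Hsd11b1, which activates glucocorticoids, was detected in 15 cells of A (147 CPM) and 0 others, and in pericyte-rule cells at 762 CPM. The 11 Nes UMIs lay in 7 cells of B and 2 of C, and none lay in A, where 3 UMIs would correspond to 11.03 CPM.

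**Figure D5:**
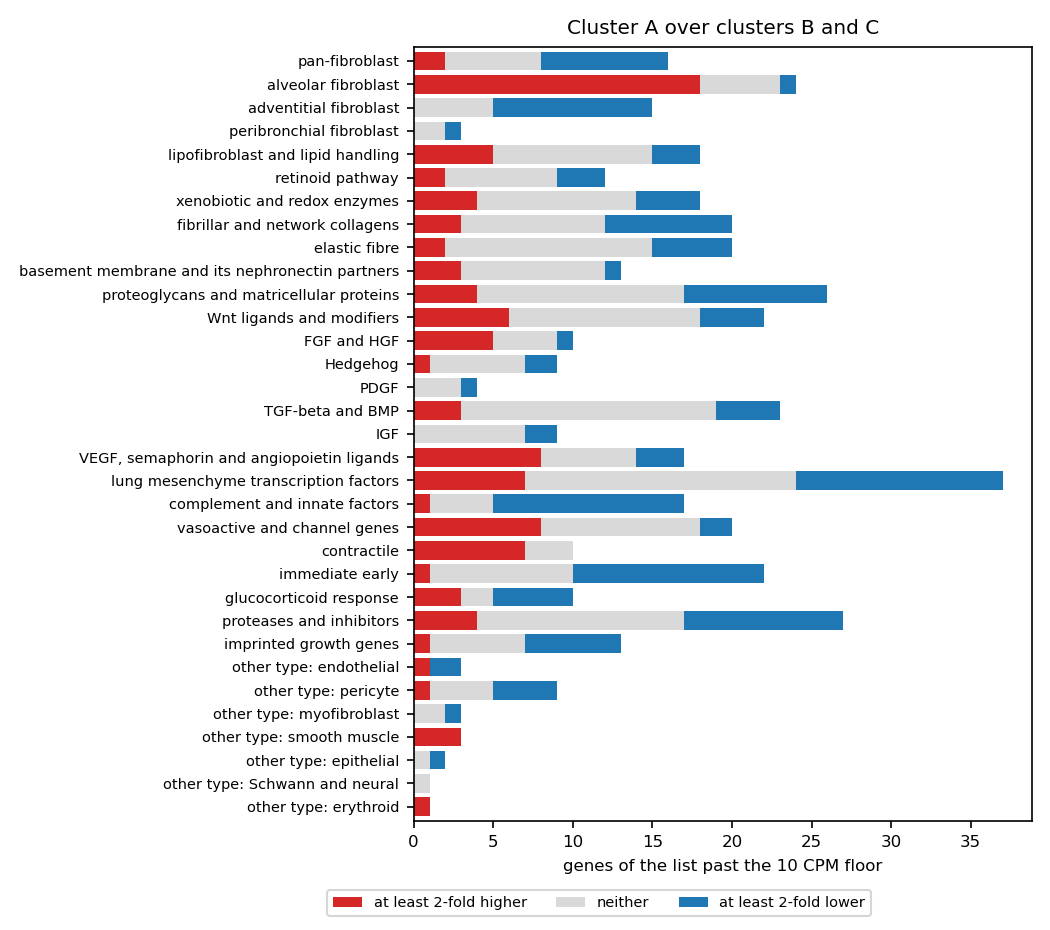
Number of genes in each list at least 2-fold higher (red), at least 2-fold lower (blue) or neither (grey) in the 36 cells of cluster A over the 71 cells of B and C, among genes past the 10 CPM floor. The alveolar (18 of 24) and contractile (7 of 10) lists were mostly higher in A, and the adventitial (10 of 15), complement (12 of 17) and immediate early (12 of 22) lists mostly lower, beside 13.1% higher and 9.64% lower among all genes tested.

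The 107 lung cells were set beside 66 brain cells with at least 4 UMIs of Dcn, Lum, Col1a1 and Slc6a13 together and more than of the pericyte and endothelial sums. Tissue and library cannot be told apart in this comparison. Of 8625 genes, 1432 (16.6%) were higher and 1284 (14.9%) lower in the lung cells, around a median log2 ratio of -0.01. Meox2 (420 CPM), Pcolce2 (468 CPM) and Aspn (413 CPM), a small leucine-rich matrix protein, had 0 UMIs in the brain cells, where 3 UMIs would correspond to 7.63 CPM. Fmo2 (739 CPM) and Gm15772 (595 CPM) had 1 UMI there. Ptgds, the prostaglandin D2 synthase of the meninges, made up 114734 CPM of the brain cells and had 0 UMIs in the lung cells, and Igfbp2 and the cystine transporter gene Slc7a11 had 0 UMIs in the lung cells against 2868 and 1672 CPM. Vtn, vitronectin, had 1 UMI against 6008 CPM. Slc6a13, a GABA transporter gene that helped choose the brain cells, had 0 UMIs in the lung cells.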

How the data were processed

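Lung and brain Nes-GFP+ cells were captured once each with 10x Chromium 3′ v3 chemistry. Per the labels and methods, the authors demultiplexed reads with bcl2fastq 2.19.1.403, mapped them to mm10 with STAR 2.7.1a, assigned genes with featureCounts 1.6.4 and deposited whole-number UMI counts per gene and cell made with UMI-tools (1.0.0 per the labels). The strand setting of the counting is not given in the sources used here, so overlapping and antisense genes are uncertain.

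From these counts, cells were kept by the study's stated limits and classed by the stated sums with Python 3.11.15, numpy 2.4.6, scipy 1.17.1 and pandas 2.3.3, and UMIs were pooled per class into CPM. Intervals were exact Poisson for levels and exact conditional binomial for ratios, at 95%. A gene at 0 UMIs was bounded with 3 UMIs per pool. Members were grouped with scanpy 1.11.5 (1000 variable genes, 15 components, 15 neighbours, Leiden resolution 0.5). No test was made, since each tissue is 1 library. The 107 cells held 920405 UMIs and the 5501 others 30876664. Genes were named by the size of the interval bound nearest 1 (20 highest and 10 lowest against other lung cells, 10 and 10 against myofibroblasts and pericytes, 5 and 5 against brain cells, with at least 50 UMIs in the higher pool), by the share of lung UMIs in the members, and as the extreme or best-known genes of 44 lists. Those named for cluster contrasts and for cell counts were chosen from the lists after their values were seen. The members and lists were chosen with earlier results of these data known. Of 645 list symbols, 632 had counts. The calculation was checked on simulated counts.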

Additional observations from a re-analysis of the deposited data

Results flagged for a closer look

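Brain cells that met the same marker rule were noted because they come from a library outside the lung description. Of 4151 kept brain cells, 4 met it (0.0964%, exact binomial 95% interval 0.0263 to 0.247%), where a count of 0 would allow up to 0.0723%. In 2 of them, both also in the brain fibroblast selection, Col13a1 supplied 9 and 2 UMIs and Inmt 0 and 3, with 120 and 47 UMIs of Dcn and 30 and 18 of Slc6a13. In the other 2 the sum came from 5 and 4 UMIs of Npnt alone, with 0 and 1 UMI of Dcn, and no brain cell of the 4 had a Tcf21 UMI.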

How the results depend on the processing

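The class was sensitive to the marker threshold and to Tcf21. A sum of at least 10 left 39 cells and leaving out Tcf21 left 38, against 107, and the genes lower than in myofibroblasts became 1127 and 1221. Thinning to 2000 UMIs gave 2219 lower than other lung cells, 542 higher and 1643 lower than myofibroblasts, and 1998 higher and 1342 lower in cluster A. Because thinning left out cells below that depth and made the pools smaller, these counts do not show the effect of depth alone. Median of ratios gave 628 higher than other lung cells. Without the CPM floor, 2018, 1955 and 2782 genes were higher than in other lung cells, myofibroblasts and pericytes, and 2014, 1275 and 1987 lower. With 10 CPM asked of either pool, chosen after seeing the data, 676, 571 and 1185 were higher and 1454, 772 and 1497 lower. A 3-fold limit gave 179, 115 and 341 higher and 820, 366 and 809 lower in the same order, and 440 higher and 405 lower in A. At resolution 1.0 there were 6 clusters. Of 180 values of single genes under 14 alternatives, 1950 stayed within their counting interval, 552 moved out of it and 7 reversed, and 11 had no value because 0 UMIs bounded no direction. The reversed log2 ratios against other lung cells were Agtr2 at -0.95 and -0.067, Pthlh at -0.64 and -0.50 and Sfrp1 at -1.27 and -0.32 with a sum of at least 10 and without Tcf21, and Ntrk2 at -0.14 with a sum of at least 10. The cause was not tested. No paired analysis was possible because each tissue is 1 library. Depth limits genes under 3 UMIs in 107 cells, 3.26 CPM.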
